A study of Mus musculus with 6 samples.

Results

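The 10 genes described here make and pack peptide hormones: the prohormone convertases *Pcsk1* and *Pcsk2*, the carboxypeptidase *Cpe*, the convertase binding proteins *Pcsk1n* and *Scg5*, and the granins *Chga*, *Chgb*, *Scg2*, *Scg3* and *Vgf*. They were chosen by name, as every probe that is not a control and whose RefSeq accession belongs to one of these symbols. All 10 were found, on 11 probes, among 45616 genes and transcripts measured on 6 single-color arrays. *Vgf* had a pair of probes and each other gene had 1.

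Islets of postnatal day 1 (P1) pups were dissociated and sorted by FACS into membrane GFP-positive cells (Wnt4hi) and GFP-negative cells (Wnt4low). All pups carried *Wnt4eGFPCre*, an allele that makes a GFP-Cre fusion where *Wnt4* is expressed, and the *mTmG* reporter, which switches from membrane tomato to membrane GFP once Cre has acted, on mice crossed to C57BL/6J. The GFP therefore records that a cell has expressed *Wnt4* at some time before sorting, since the fusion protein itself was too dim to sort on, and the pups received no treatment. Each array holds the RNA of 1 sorted fraction from islets pooled from 3 or 4 pups, with 3 arrays per population, Wnt4hi replicates 2, 3 and 4 and Wnt4low replicates 1, 3 and 4, all on 1 slide. Of 59305 spots that are not controls, 70.5% to 79.5% were well above background and 0 were saturated. *Wnt4* itself was higher in Wnt4hi by 1.08 on the log2 scale (unadjusted p = 0.00694, adjusted p = 0.210 by limma).

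A peptide hormone is made as a longer precursor that is cut inside secretory granules. PC1/3, the product of *Pcsk1*, and PC2, the product of *Pcsk2*, cut after pairs of basic residues, and carboxypeptidase E then trims these residues from the new ends. The product of *Pcsk1n*, proSAAS, can inhibit PC1/3, and that of *Scg5*, 7B2, is a chaperone that PC2 needs to become active. Granins are acidic proteins that condense with the hormones in the dense core of the granule. In islets, this machinery turns proinsulin into insulin in β-cells and proglucagon into glucagon in α-cells.

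The promoters are shown because several granin and convertase genes carry a cAMP response element (CRE). This site is bound by factors of the CREB and ATF family. The site was thus chosen with this gene family in mind, so its share among the members is a description and not a test. A link between the site and the differences between the populations was not tested. RefSeq promoter windows (GRCm38.p6) were held for 8 of the 10 genes, not for *Cpe* and *Vgf*. The table holds 1 transcript start per gene. For 6 of the 8 this is the outermost start of the gene in RefSeq, whereas the start used lies 437 bases downstream of the outermost one in *Pcsk1* and 1903 bases downstream in *Scg3*, so that these windows lie inside the span of the gene. The 250 bases before each of these starts were searched for the CRE, TGACGTCA, which reads the same on both strands, and for its shorter core, TGACG on either strand (TGACG or CGTCA as read), which the CRE contains. The CRE was present in 3 of the 8, against 508 of 32851 promoters in the whole table (1.55%). The CRE or a core was present in 7 of the 8, against 17.8% of all promoters. Capitals mark the CRE, or a core that lies outside a CRE. Each window is written 5′ to 3′ on the gene's own strand.
Pcsk1, chr13:75089755-75089835, plus strand: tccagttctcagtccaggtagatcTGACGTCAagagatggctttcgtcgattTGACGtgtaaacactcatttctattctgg
Chgb, chr2:132781546-132781601, plus strand: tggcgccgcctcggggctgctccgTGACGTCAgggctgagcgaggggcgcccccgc
Scg2, chr1:79440063-79440118, minus strand: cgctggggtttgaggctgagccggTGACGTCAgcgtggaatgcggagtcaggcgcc
Chga, chr12:102554873-102554925, plus strand: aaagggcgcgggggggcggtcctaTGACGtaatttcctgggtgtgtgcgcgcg
Scg3, chr9:75684058-75684110, minus strand: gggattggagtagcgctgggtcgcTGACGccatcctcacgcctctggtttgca
Pcsk2, chr2:143546075-143546127, plus strand: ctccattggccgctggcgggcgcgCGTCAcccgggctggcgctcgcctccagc
Scg5, chr2:113829238-113829290, minus strand: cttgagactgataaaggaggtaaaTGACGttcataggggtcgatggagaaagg
The CRE began 78 bases before the start used in *Pcsk1*, 72 in *Chgb* and 68 in *Scg2*. The core began 44 bases before the start used in *Chga*, 34 in *Pcsk2* and 30 in *Scg3*, but 175 bases before it in *Scg5*. These letters were not in the window of *Pcsk1n*. The sites are matches of letters, and binding at them was not measured.

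Across the group, 9 of the 10 genes were higher in Wnt4hi cells at the unadjusted p of 0.05 that the study uses, all but *Vgf*, and 0 were lower. Of all 45616 features, 5.06% were higher by the same rule and 5.53% were lower. The median difference of the 10 genes, Wnt4hi minus Wnt4low, was 1.12 on the log2 scale, against 0.073 for all features, and the differences of the 9 genes ran from 0.76 for *Scg2* to 1.67 for *Scg3*, that is from 1.70-fold to 3.18-fold. They lay between the 95.5th and the 99.6th percentile of all differences. After Benjamini-Hochberg adjustment over all features, limma called 0 of the 10, and the lowest adjusted p was 0.145 for *Chgb*. By that rule 0.0351% of features were higher in Wnt4hi and 0.406% were lower. Every Wnt4hi array lay above every Wnt4low array for 8 of the 10 genes, and for 9.63% of all features measured on all arrays. Among the 4905 genes at least as bright as the dimmest of the 9, 8.44% were higher at the unadjusted threshold and 12.5% had arrays apart in this direction. Without Wnt4hi replicate 4 the count of members higher at the unadjusted threshold was 5 in place of 9, as *Pcsk1*, *Scg5*, *Chga* and *Scg3* passed it no longer, and without Wnt4hi replicate 3 it was 6. An exact permutation test of 3 arrays against 3 cannot give a two-sided p below 0.1, the value reached by the 8 genes whose arrays were apart.

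**Figure D1:**
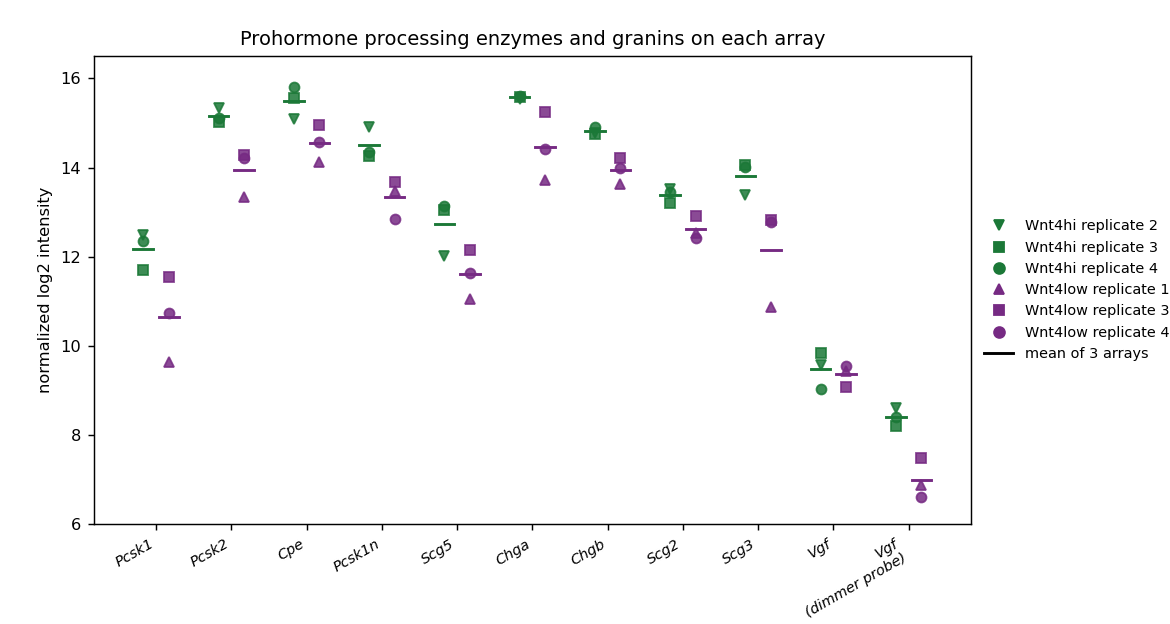
Normalized log2 intensity (y axis) of the 11 probes of the 10 genes (x axis) on each of the 6 arrays. Green symbols are Wnt4hi and purple symbols Wnt4low arrays, the symbol shape gives the replicate and bars are means of 3 arrays. The populations are apart for 8 genes and overlap for *Scg5* and for the brighter probe of *Vgf*.

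In the following, log2 intensities are given for Wnt4hi replicates 2, 3 and 4 and then for Wnt4low replicates 1, 3 and 4, in this order, and levels are not compared between genes because each probe has its own response. Both convertases were higher in Wnt4hi cells. *Pcsk1* was at 12.50, 11.70 and 12.36 in Wnt4hi and at 9.63, 11.55 and 10.73 in Wnt4low cells. Wnt4hi replicate 3 and Wnt4low replicate 3 were separated by only 0.14, and Wnt4low replicate 1 was far below the other arrays. Its difference was 1.54 (standard error 0.50, unadjusted p = 0.0212, adjusted p = 0.339), with a 95% interval from 0.32 to 2.77. The call at the unadjusted threshold was lost without Wnt4hi replicate 2 (1.39) and without Wnt4hi replicate 4 (1.46). It was also lost when the replicate number was added to the fit as a fixed block (0.886). *Pcsk2* was at 15.33, 15.02 and 15.12 in Wnt4hi and at 13.33, 14.29 and 14.23 in Wnt4low cells, so that the lowest Wnt4hi array stood 0.73 above the highest Wnt4low array, the widest such gap among the members. Its difference was 1.21 (standard error 0.28, unadjusted p = 0.00499, adjusted p = 0.183), and the unadjusted call held without any 1 array. The difference of *Pcsk1* exceeded that of *Pcsk2* by 0.34 (standard error 0.34, exact permutation p = 0.4), so that this test did not tell the changes of the convertases apart.

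*Cpe* was at 15.09, 15.57 and 15.80 in Wnt4hi and at 14.12, 14.95 and 14.58 in Wnt4low cells. The populations did not overlap, but Wnt4hi replicate 2 and Wnt4low replicate 3 were within 0.15 of each other. In the authors' normalized values, where Wnt4hi replicate 2 does not follow the scanner file (correlation 0.27), these arrays were at 15.80 and 14.99. The difference was 0.94 (standard error 0.28, unadjusted p = 0.0148, adjusted p = 0.294), or 1.91-fold. It was smaller than that of *Pcsk1* by 0.61 with a standard error of 0.49 (exact permutation p = 0.5).

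Both genes for convertase binding proteins were higher in Wnt4hi cells at the unadjusted threshold. *Pcsk1n* was at 14.92, 14.26 and 14.35 in Wnt4hi and at 13.47, 13.67 and 12.85 in Wnt4low cells. Here the lowest array was Wnt4low replicate 4, not replicate 1, and the populations were 0.59 apart. The difference was 1.18 (standard error 0.28, unadjusted p = 0.00564, adjusted p = 0.193). *Scg5* was at 12.01, 13.04 and 13.15 in Wnt4hi and at 11.06, 12.15 and 11.63 in Wnt4low cells. Wnt4hi replicate 2 lay below Wnt4low replicate 3, so the populations overlapped. In the authors' normalized values, where Wnt4hi replicate 2 does not follow the scanner file (correlation 0.27), they did not overlap. There these arrays were at 12.94 and 12.27. By the scanner values the difference of 1.12 (standard error 0.40, unadjusted p = 0.0312, adjusted p = 0.395) lost the unadjusted call without any 1 of 4 arrays. These were Wnt4hi replicate 3, Wnt4hi replicate 4, Wnt4low replicate 1 and Wnt4low replicate 4, with values from 0.84 to 1.13. Each binding protein was also set beside its convertase. The change of *Pcsk1* exceeded that of *Pcsk1n* by 0.36 (standard error 0.60, exact permutation p = 0.8), and without Wnt4low replicate 1 it was smaller by 0.21, while that of *Pcsk2* exceeded that of *Scg5* by 0.09 (standard error 0.47, exact permutation p = 1), and the value turned to −0.36 without Wnt4hi replicate 2 and to −0.0105 without Wnt4low replicate 3. Of the 5 pairs compared in all, none differed, with p-values adjusted over the pairs of 0.83 or 1, which does not show that the genes of a pair changed alike.

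Among the granins, 4 of 5 were higher in Wnt4hi cells at the unadjusted threshold. *Chga*, for chromogranin A, was at 15.54, 15.59 and 15.61 in Wnt4hi, a range of 0.077, and at 13.73, 15.26 and 14.41 in Wnt4low cells, a range of 1.53. Its difference of 1.11 (standard error 0.37, unadjusted p = 0.0239, adjusted p = 0.356) lost the unadjusted call without Wnt4hi replicate 3, Wnt4hi replicate 4 or Wnt4low replicate 4, at 1.09 to 1.11, and was 0.75 without Wnt4low replicate 1. *Chgb*, for chromogranin B, is printed on 10 spots of each array, of which 7 to 10 were free of outlier marks. Their standard deviation within an array was 0.026 to 0.136 on the log2 scale, which measures the repeat of spots and not the spread between samples. *Chgb* was at 14.77, 14.75 and 14.91 in Wnt4hi and at 13.64, 14.21 and 14.00 in Wnt4low cells, a difference of 0.86 (standard error 0.18, unadjusted p = 0.00296), and the call held without any 1 array. The changes of *Chga* and *Chgb* differed by 0.25 (standard error 0.28, exact permutation p = 0.4).

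*Scg2*, for secretogranin II, was at 13.51, 13.21 and 13.44 in Wnt4hi and at 12.53, 12.92 and 12.43 in Wnt4low cells. Its difference of 0.76 (standard error 0.18, unadjusted p = 0.00522, adjusted p = 0.188) was the smallest of the 9, and the arrays were 0.29 apart. The unadjusted call was lost when the replicate number was added to the fit as a fixed block. *Scg3*, for secretogranin III, which binds chromogranin A and the granule membrane, was at 13.38, 14.07 and 14.01 in Wnt4hi and at 10.87, 12.82 and 12.78 in Wnt4low cells. Its difference over all 6 arrays was 1.67 (standard error 0.56, unadjusted p = 0.0241, adjusted p = 0.357), the highest value among the members. That rank was lost without Wnt4low replicate 1, where it was 1.02, below 1.25 for *Pcsk1n*, and *Pcsk1* was above it without Wnt4hi replicate 3 or Wnt4low replicate 3. The unadjusted call was lost without Wnt4hi replicate 3 (1.54) or Wnt4hi replicate 4 (1.57).

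*Vgf*, whose product is cut into several secreted peptides, stood apart from the other members by its brighter probe only, and its probes disagreed. By the brighter probe it was at 9.57, 9.84 and 9.03 in Wnt4hi and at 9.44, 9.08 and 9.55 in Wnt4low cells. The populations overlapped, and the difference was 0.12 with a 95% interval from −0.49 to 0.73 (unadjusted p = 0.646, adjusted p = 0.920). By the dimmer probe it was at 8.60, 8.21 and 8.41 in Wnt4hi and at 6.88, 7.49 and 6.60 in Wnt4low cells, well above background on all 3 Wnt4hi arrays and on 0 Wnt4low arrays. *Vgf* passed the unadjusted threshold when its probes were averaged or when the probe with the smallest p was used, so that its call depended on the choice of probe. The difference of the dimmer probe was 1.42 (unadjusted p = 0.00148, adjusted p = 0.102 over the 56605 probes by limma). As a bound, Wnt4low values under the lowest intensity well above background on their array were raised to that intensity. The mean was then 7.42, and by this bound the probe was at least 1.99-fold higher in Wnt4hi cells. In the authors' normalized values the populations overlapped for this probe, with a difference of 0.26. Signal over the local background was 2.14 to 10.9 for the dimmer probe and 11.8 to 28.5 for the brighter one, against at least 27.6 on each array for the other members. The difference of the brighter probe turned to −0.058 without Wnt4hi replicate 3 and to −0.018 without Wnt4low replicate 3.

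**Figure D2:**
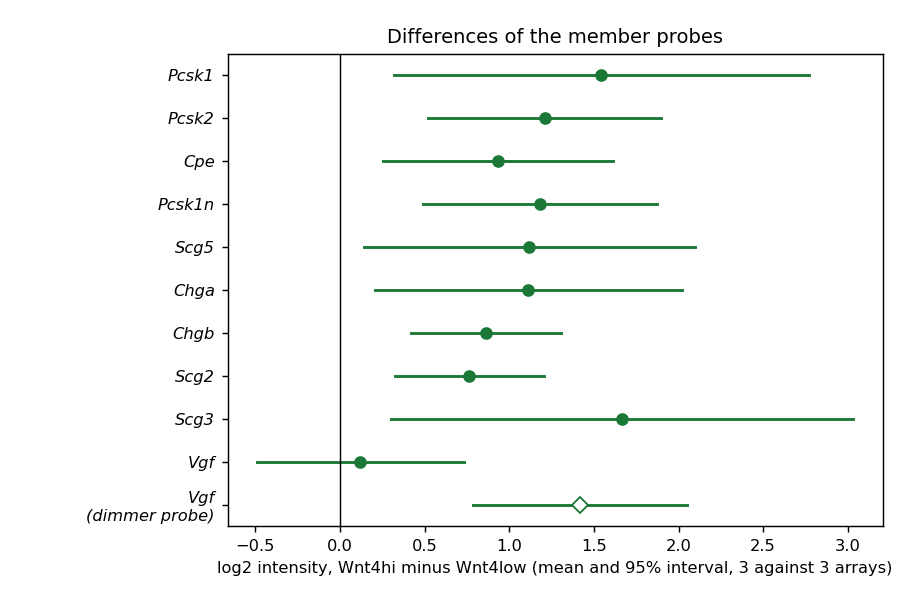
Difference in log2 intensity between Wnt4hi and Wnt4low cells (x axis) for each probe of the 10 genes (y axis). Points are differences of means of 3 arrays each and lines are 95% intervals from limma, with an open diamond for the second *Vgf* probe, whose Wnt4low values were not well above background. The interval lies above 0 for 9 genes and spans 0 for the brighter *Vgf* probe.

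The members also varied together within the Wnt4low population. For each array, the median over the 10 genes of the log2 intensity minus the gene's mean over 6 arrays was 0.45, 0.44 and 0.58 in Wnt4hi replicates 2, 3 and 4. It was −1.004, −0.13 and −0.49 in Wnt4low replicates 1, 3 and 4. Wnt4low replicate 1 was the lowest Wnt4low array for 7 of the 10 genes, and Wnt4low replicate 3 was the highest for 9. The range over 3 arrays was wider in Wnt4low than in Wnt4hi cells for 8 of the 10, the exceptions being *Scg5* and *Vgf*. Without Wnt4low replicate 1 the median difference of the members was 0.794, and 8 of them were higher at the unadjusted threshold.

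Markers of other cell types also differed between the populations. All 12 endothelial markers were lower in Wnt4hi cells, 8 of them after adjustment, with a median difference of −3.63. Their summed intensity was 4643 to 6810 on the Wnt4hi arrays and 39869 to 73366 on the Wnt4low arrays, highest on Wnt4low replicate 1. Of the 12, 7 were well above background on all 3 Wnt4hi arrays and 3 on 2 of them, while *Tek* and *Tie1* were so on 0. Of 10 mesenchyme and pericyte markers, 7 were lower in Wnt4hi cells, with a summed intensity of 35440 to 67855 against 83532 to 110655 in Wnt4low cells, where it was lowest on replicate 1, and all 10 were well above background on every array. Of 10 leukocyte markers, 4 were lower, with a summed intensity of 9536 to 14993 against 16335 to 17736.

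Markers shared by endocrine cells, and those of β-cells and α-cells, were higher in Wnt4hi cells for most of each list, whereas those of δ-cells were not. Of 8 genes shared by the endocrine cell types, 6 were higher in Wnt4hi cells, and their summed intensity was 47373 to 53394 on the Wnt4hi arrays and 12325 to 27926 on the Wnt4low arrays, lowest on Wnt4low replicate 1. Of 10 β-cell markers 6 were higher, with summed intensities of 327925 to 336473 against 190303 to 292784. Of 7 α-cell markers 4 were higher, with summed intensities of 81327 to 123556 against 13807 to 67506. In bulk samples, fewer cells of a type and less RNA per cell cannot be told apart. The part of the cell type makeup in the differences of the members was not tested. Among the remaining lists, 1 of 4 δ-cell markers was higher and 2 were lower, with a median of −0.64 and the highest sum on Wnt4low replicate 1, 1 of 2 PP-cell and 1 of 2 ε-cell markers were higher, 1 of 10 acinar markers was higher and 1 lower, 1 of 7 ductal markers was higher and 1 lower, and 2 of 6 Schwann and 2 of 5 erythroid markers were lower.

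**Figure D3:**
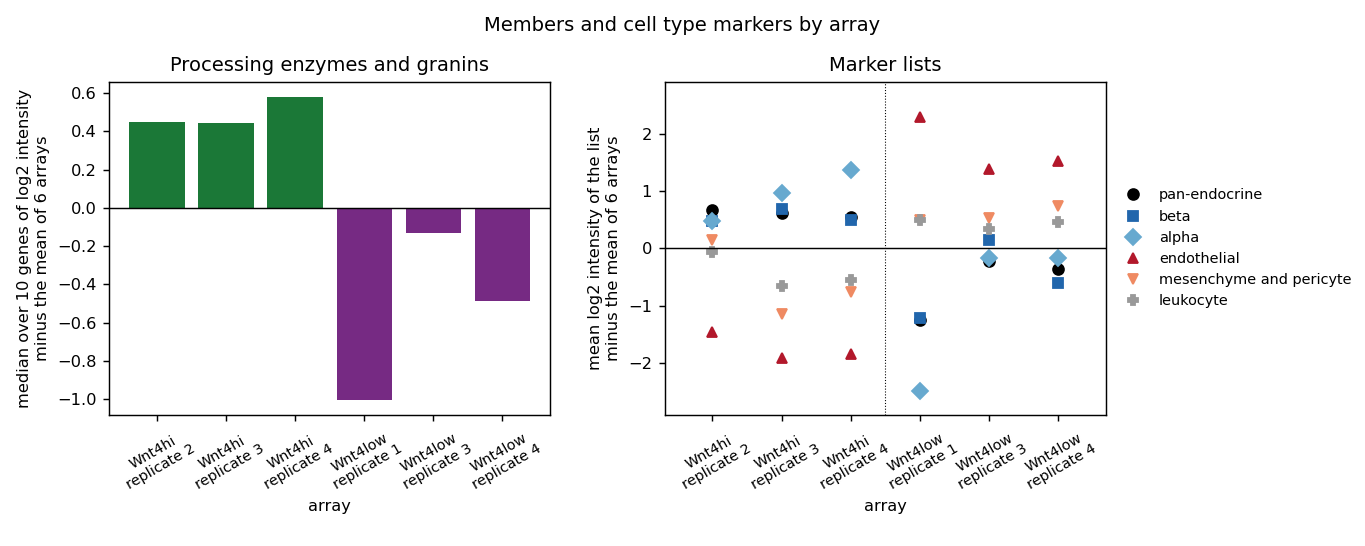
Left, the median over the 10 genes of log2 intensity minus the gene's mean over 6 arrays (y axis) on each array (x axis), green for Wnt4hi and purple for Wnt4low. Right, the mean log2 intensity of each marker list minus its mean over 6 arrays (y axis), with a symbol per list. Wnt4low replicate 1, at −1.004, has the lowest bar, the lowest pan-endocrine, β-cell and α-cell symbols and the highest endothelial symbol.

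To set the members beside the endocrine markers, each member was expressed relative to the mean of the 8 shared endocrine genes on the same array, a scale chosen after the values had been seen. These markers were on average 1.22 higher in Wnt4hi cells. On this scale 8 members had a difference below 0 and 2 above, and the arrays of the populations overlapped for 9 of 10. *Pcsk2* differed by −0.014 (standard error 0.082, exact permutation p = 0.8), the value nearest to 0 and the one with the smallest error. *Chgb* differed by −0.36 (standard error 0.19, exact permutation p = 0.2) and *Scg2* by −0.46 (standard error 0.31, exact permutation p = 0.3). *Pcsk1* and *Scg3* were the 2 above 0, at 0.32 (standard error 0.37, exact permutation p = 0.3) and 0.44 (standard error 0.41, exact permutation p = 0.4). *Vgf*, by its brighter probe, was lower relative to these genes in every Wnt4hi array, with a difference of −1.10 (standard error 0.46, exact permutation p = 0.1, the smallest that this design allows). The dimmer *Vgf* probe, with a difference of 1.42 before scaling, was not set on this scale.

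Other genes of hormone processing were described beside the members. Of 77 such genes of the pathway in 8 lists, 16 were higher and 5 lower in Wnt4hi cells at the unadjusted threshold, with a median of 0.26, and 3 were higher after adjustment. Of all features, 5.06% were higher and 5.53% lower at the unadjusted threshold, and 0.0351% were higher after adjustment. The count of lower pathway genes was near the share of all features. With 1 array left out, the medians of 4 lists changed sign. They ran from −0.062 to 0.149 for the other convertases, from −0.296 to 0.242 for end modification, from −0.225 to 0.031 for the cathepsins and from −0.059 to 0.085 for granule biogenesis factors. Of the other proprotein convertases 0 of 7 were higher and 1 was lower, with a median of 0.076. *Furin*, the convertase of the constitutive secretory route, was at 12.37, 12.01 and 12.13 in Wnt4hi and at 12.15, 12.13 and 12.74 in Wnt4low cells, a difference of −0.17 (standard error 0.22, adjusted p = 0.860). *Pcsk7* was the lower one, at −0.47 (unadjusted p = 0.0418), a call that held under 7 of 20 other settings. The largest positive value was 0.62 for *Pcsk4* (unadjusted p = 0.0715). Of the 8 other carboxypeptidases and exopeptidases 1 was higher, *Dpp4*, a peptidase that trims incretins, at 1.02 (unadjusted p = 0.0383). That call was lost without Wnt4hi replicate 4 (0.63), Wnt4low replicate 1 or Wnt4low replicate 3, and also with cyclic loess, with its probes averaged and by the methods' t-test. *Cpn1* had the largest positive value of this list, 1.26 (unadjusted p = 0.0955), and *Cpz* the largest negative value, −0.17. *Cpn1* was at 0.77 without Wnt4low replicate 1 and at 1.85 without Wnt4hi replicate 2, where it passed the unadjusted threshold.

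*Pam*, the enzyme that amidates the ends of peptide hormones, was 1 of the 3 genes that passed adjustment. It was at 12.79, 12.54 and 12.56 in Wnt4hi and at 11.59, 11.54 and 11.53 in Wnt4low cells, and the populations were well apart with little spread in each. Its difference was 1.08 (standard error 0.13, adjusted p = 0.0450), and the unadjusted call held under all 20 other settings, the adjusted one under 6. The 4 other genes of end modification did not pass the threshold with all arrays, among them *Tpst1*, a tyrosylprotein sulfotransferase, at −1.05 (unadjusted p = 0.0908), or −0.62 without Wnt4hi replicate 2 and −1.64 without Wnt4hi replicate 4, where it passed the unadjusted threshold. Of 7 lysosomal cathepsins 0 were higher and 2 were lower, with a median of −0.12. *Ctss*, the cathepsin of antigen presenting cells, was lower by a difference of −1.51 (standard error 0.41, unadjusted p = 0.0102), *Ctsa* was at −0.38 (unadjusted p = 0.0380), a call that was lost under 11 of 20 other settings, and *Ctsl* had the largest positive value, 0.28, or 0.032 without Wnt4hi replicate 4.

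Of the proteins of the granule membrane and lumen 5 of 11 were higher and 0 lower. The median of the list was 1.38, but 0.66 without Wnt4low replicate 1. *Slc18a1*, a vesicular monoamine transporter, had the largest difference, with 11.34, 10.11 and 9.95 in Wnt4hi and 8.26, 9.27 and 8.35 in Wnt4low cells, that is 1.84 (standard error 0.45, unadjusted p = 0.00623). The related transporter *Slc18a2* was the only gene of the list below 0, at −0.55 (unadjusted p = 0.337), or −0.102 without Wnt4low replicate 4 and −1.15 without Wnt4low replicate 3, where it passed the unadjusted threshold. The other 4 were *Resp18* (1.77, unadjusted p = 0.000744), *Slc30a8*, the zinc transporter of insulin granules (1.73, unadjusted p = 0.0357), *Ptprn2* (1.44, unadjusted p = 0.0109) and *Sytl4*, which docks granules at the plasma membrane (1.43, unadjusted p = 0.0247). Both *Slc30a8* and *Sytl4* lost the call without Wnt4hi replicate 3, Wnt4hi replicate 4 or Wnt4low replicate 4, *Slc30a8* also without Wnt4hi replicate 2, and *Sytl4* also when its probes were averaged. Without Wnt4low replicate 1 the difference was 1.01 for *Slc30a8* and 0.89 for *Sytl4*.

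Factors of granule biogenesis had a median of 0.064, with 1 of 10 higher and 1 lower. The higher gene was *Hid1*, which acts at the trans-Golgi network in granule formation, at 13.33, 12.68 and 12.51 in Wnt4hi and at 10.16, 10.90 and 10.75 in Wnt4low cells. The lowest Wnt4hi array was far above the highest Wnt4low array, and the difference of 2.24 (standard error 0.29, adjusted p = 0.0527) was the largest of the 77. It passed adjustment under 9 of the 20 other settings, as many as for *Ghrl*. The lower gene was *Ccdc186*, at −0.67 (unadjusted p = 0.0233), a call lost without any 1 of 4 arrays, Wnt4hi replicates 2 and 3 and Wnt4low replicates 1 and 3.

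Among the substrates, 4 of 19 prohormone genes were higher and 1 was lower, with a median of 0.43. *Ghrl*, for ghrelin, was at 13.87, 14.29 and 14.34 in Wnt4hi and at 11.57, 12.16 and 12.47 in Wnt4low cells, a difference of 2.10 (standard error 0.27, adjusted p = 0.0491). *Ins1* and *Ins2*, which are near-identical in sequence so that their probes may share targets, differed by 0.43 (unadjusted p = 0.0744) and 0.56 (unadjusted p = 0.0226), and *Ins2* lost its call without any 1 of 4 arrays, Wnt4hi replicates 2 and 3 and Wnt4low replicates 1 and 4. Both lay at 15.81 or above on all 6 arrays, near the top of the intensity scale. *Gcg*, for proglucagon, had overlapping populations, with a difference of 1.27 (unadjusted p = 0.0954). *Ppy* differed by 1.22 (unadjusted p = 0.000829) and *Iapp* by 0.97 (unadjusted p = 0.00963). The lower gene was *Sst*, for somatostatin, at 13.29, 13.61 and 13.79 in Wnt4hi and 14.35, 13.97 and 14.06 in Wnt4low cells, a difference of −0.56 (standard error 0.19, unadjusted p = 0.0238) with no overlap, and its call was lost without Wnt4hi replicate 2, Wnt4hi replicate 3 or Wnt4low replicate 1. *Penk*, for proenkephalin, had the largest negative value, −1.49 (unadjusted p = 0.0522), or −0.94 without Wnt4hi replicate 4 and −2.04 without Wnt4hi replicate 2. Without Wnt4hi replicate 2 it passed the unadjusted threshold, as it did under 9 of 19 other settings in all.

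Of 10 transcription factors of neuroendocrine genes, 4 were higher in Wnt4hi cells and 0 lower, with a median of 0.69, or 0.26 without Wnt4low replicate 1. *Isl1*, a factor needed for islet cell formation, was the third gene past adjustment, at 11.45, 11.50 and 11.35 in Wnt4hi and at 10.23, 10.47 and 10.28 in Wnt4low cells, a difference of 1.11 (standard error 0.13, adjusted p = 0.0435). *Pax6* had the largest difference, 1.75 (unadjusted p = 0.00301), followed by *Nkx2-2* at 1.62 (unadjusted p = 0.0101) and *Neurod1* at 1.54 (unadjusted p = 0.0148), and all 4 are also among the shared endocrine markers. *Rest*, a repressor of neuroendocrine genes outside such cells, had the largest negative value, −1.12, with overlapping populations (unadjusted p = 0.117), or −1.84 without Wnt4hi replicate 2, where it passed the unadjusted threshold, and −0.63 without Wnt4hi replicate 3. *Creb1*, *Crem* and *Atf1*, for factors of the family that binds the CRE, differed by −0.36, −0.41 and 0.37, and none passed limma's unadjusted threshold. The adjusted call held under 9 of the 20 other settings for *Ghrl* and under 8 for *Isl1*. For *Pam*, *Ghrl* and *Isl1* it was lost without any 1 of the 6 arrays, whereas their unadjusted calls held in each case.

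**Figure D4:**
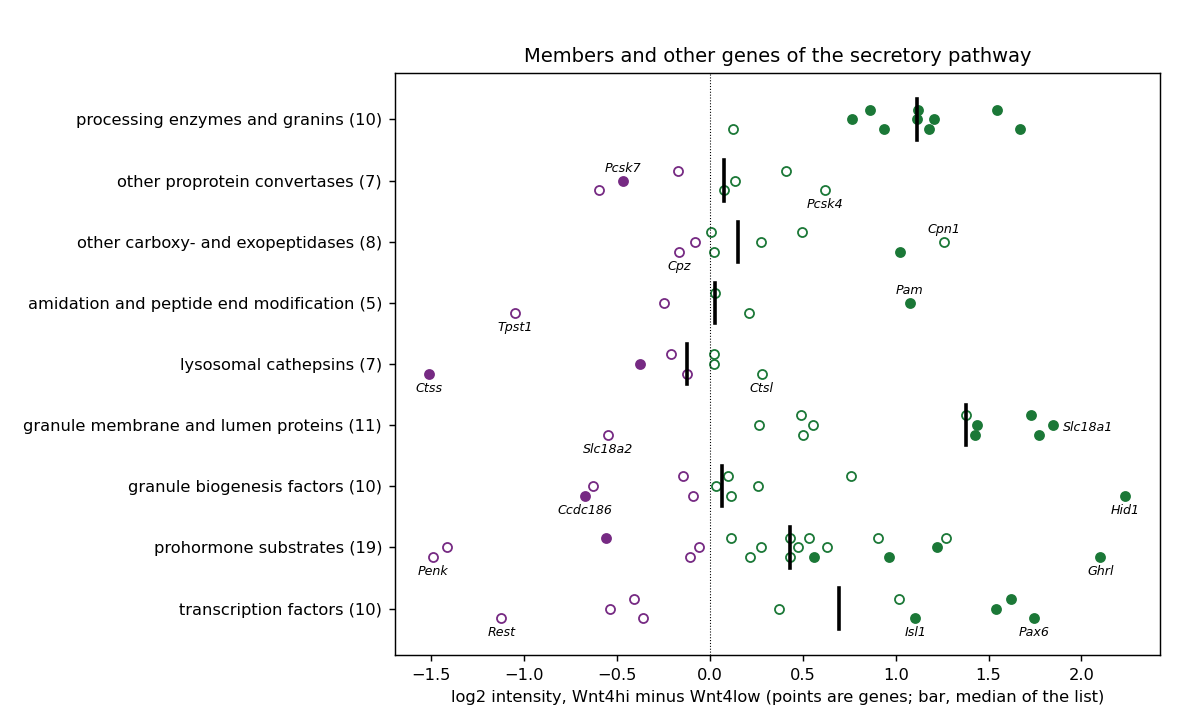
Difference in log2 intensity between Wnt4hi and Wnt4low cells (x axis) for the 10 processing enzymes and granins and for 8 lists of other genes of the pathway (y axis, number of genes in brackets). Points are genes, filled where the unadjusted p is below 0.05, and bars are medians. The median is 1.12 for the members, 1.38 for granule membrane and lumen proteins (0.66 without Wnt4low replicate 1), 0.076 for the other convertases and −0.12 for the cathepsins.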

How the data were processed

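The authors deposited, for each of 6 single-color Agilent arrays, the scanner output with the median intensity of every spot and of its local background (Cy5), not normalized. Their own log2 values, normalized by the authors, served here as an alternative. Feature Extraction is version 12.0.1.1 per the file headers and 9.1 in the submitters' processing notes.

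Following the study's methods, intensities were background corrected with normexp (offset 50) over all spots and arrays were quantile normalized with limma (version 3.58.1, R 4.3.3). Outlier spots were removed before the normalization, a step that the methods do not state. Spots of a probe were averaged, and the probe with the highest mean stood for a gene. Of 27845 RefSeq-type names, 25126 matched the RefSeq genes of GRCm38.p6, used for names only. Wnt4hi and Wnt4low were compared with lmFit and eBayes without covariates and adjusted by Benjamini-Hochberg over 45616 features. Pairs of members were compared by exact permutation tests, two-sided. The calculation was tested on simulated data.

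All members are named, and from each pathway list the genes past adjustment and the largest value in each direction among probes well above background on all 3 arrays of a population. Other named genes were chosen after their values were seen. The members and lists were chosen with earlier results of these data known. The arrays lie on 1 slide, so no batch was tested, and their number limits the precision. The labels give the pups pooled per array. They do not say whether equal replicate numbers share a pool, and p-values measure the spread between these samples. One gene most like the members is not reported here.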

Additional observations from a re-analysis of the deposited data

How the results depend on the processing

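The members were recomputed under 20 other settings of background, normalization, probe choice, filter, variance model and samples. After adjustment 0 of the 10 passed under each. At the unadjusted threshold 9 to 10 passed in the settings that changed background, normalization, filter or probe choice (8 of the 9 found in the authors' values, where *Pcsk2* was not found by its probe), and 5 by the methods' t-test, which the study names in general and not for its arrays, and 5 to 9 when 1 array was left out. The median difference ran from 0.794 to 1.36 with 1 array left out. As a fixed replicate block, the replicate number gave 0.85, with 6 members past the threshold, as *Pcsk1* (0.886), *Chga* (0.77) and *Scg2* (0.66) lost their calls, and with a random replicate block 1.11, with 9. The numbers were not taken as pairs, since the labels do not say so and only numbers 3 and 4 occur in both populations. Pool sizes were equal for these numbers, 4 pups for replicate 3 and 3 pups for replicate 4. Their arrays deviated from the population means with correlations of −0.03 and 0.16. With 3 arrays per population these correlations cannot exclude a shared pool. With 1 array left out, *Vgf* ran from −0.058 without Wnt4hi replicate 3 (−0.018 without Wnt4low replicate 3) to 0.35, *Pcsk2* minus *Scg5* from −0.36 without Wnt4hi replicate 2 (−0.0105 without Wnt4low replicate 3) to 0.31, and *Pcsk1* minus *Pcsk1n* from −0.21 without Wnt4low replicate 1 to 0.65. The count of pathway genes lower in Wnt4hi was 3 with the processed signal and 2 to 7 with 1 array left out, in place of 5. The causes were not tested.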

Other observations

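Among the genes whose log2 intensities over the 6 arrays were most like the mean of the 10 members were *Sdhaf4*, *Tmed4*, *Foxa2* and *Stx17*, out of 16148 genes considered. *Foxa2*, a transcription factor of the pancreatic endoderm, was at 12.92, 12.82 and 12.90 in Wnt4hi replicates 2, 3 and 4 and at 10.79, 11.88 and 11.49 in Wnt4low replicates 1, 3 and 4. *Tmed4*, a cargo receptor of the early secretory route, was at 11.87, 11.92 and 11.84 in Wnt4hi and at 10.72, 11.36 and 11.14 in Wnt4low cells. Both had the order of the members, with Wnt4low replicate 1 lowest and Wnt4low replicate 3 highest among the Wnt4low arrays. The likeness includes the difference between the populations, and 172 genes had a correlation with the mean of the members above 0.95.

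The deviations of the scanner values from their mean over arrays followed those of the authors' normalized log2 table with a correlation of 0.84 to 0.87 for 5 arrays, but of 0.27 for Wnt4hi replicate 2. In the authors' table that column had *Scg5* at 12.94, against 12.01 here, and *Cpe* at 15.80, against 15.09. The *Scg5* populations did not overlap in that table.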
